A study of Mus musculus with 6 samples.

Results

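The 9 genes described here encode proteins that shorten the life of messenger RNA, and their mRNA levels were measured in γδ T cells of the spleen, lymphocytes that carry a γδ in place of an αβ antigen receptor. The genes were taken by symbol alone: the ZFP36 family (Zfp36, Zfp36l1, Zfp36l2), the antiproliferative genes Btg1 and Btg2, the Roquin genes (Rc3h1, Rc3h2) and the Regnase genes Zc3h12a and Zc3h12d. All 9 had a row among the 19390 gene symbols of the deposited table, and all 9 were among the 12810 genes with enough counts to be tested.

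The 3 KO-labelled libraries were taken to be from USF3-f/f; CD2-cre mice and the 3 WT-labelled libraries from USF3-f/f mice, so both groups carry floxed Usf3 alleles and only the KO-labelled mice carry the CD2-cre transgene, which drives Cre recombinase in lymphoid cells rather than in γδ T cells alone. The presence of Cre and the loss of Usf3 cannot be told apart in this design. All mice were 6 weeks old, the cells were sorted from spleen by flow cytometry, and no stimulation is stated. The labels do not say whether the libraries of a group came from separate animals, so the tests measure the spread between libraries, which may be technical. Libraries held between 34644862 and 35806402 counts.

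Several series-wide values bear on the members. Usf3 itself, the targeted gene, was 68.5 ± 3.18 CPM in KO-labelled and 72.2 ± 1.81 CPM in WT-labelled libraries (SD, n = 3 each; CPM are counts scaled to a common library size) and did not pass the test (edgeR adjusted p = 0.261), so a count over the whole gene does not check the labels. Of 5 T cell genes, Cd3e, Cd3d, Cd3g and Cd2 were lower (log2 fold changes -0.17 to -0.08) and Cd247 did not pass (0.03), and their sum was 1232 to 1302 CPM in KO-labelled and 1346 to 1368 CPM in WT-labelled libraries. Cd8a was at 86.9 CPM in KO-labelled and 66.1 CPM in WT-labelled libraries, Cd8b1 at 17.8 and 18.1 CPM and Cd4 at 0.463 and 0.522 CPM in the same order. Of 4 natural killer cell genes, Eomes was higher (500 CPM in KO-labelled and 307 CPM in WT-labelled libraries), Ncr1 was lower (0.965 and 1.85 CPM in the same order), Klrb1c did not pass (76.3 and 73.8 CPM) and Klra8 was too low to test. The γδ receptor genes were not analysed here. Of 22 markers of B cells, myeloid cells, neutrophils, red cells and platelets, 17 were under 1 CPM in all 6 libraries, Csf1r and S100a8 were at 0 in all KO-labelled libraries and Adgre1 in all WT-labelled ones, and their sum was 61.9 to 67.3 CPM in KO-labelled and 72.1 to 75.7 CPM in WT-labelled libraries. Cst3 made up most of that sum (49.2 CPM in KO-labelled and 55.6 CPM in WT-labelled libraries). Among these markers, the 2 tested for monocytes and macrophages were lower, as was 1 of 3 tested for dendritic cells. The other tested dendritic cell markers did not pass, and the median log2 fold change of the 3 was 0.395. The 1 tested for B cells did not pass, and those of neutrophils, red cells and platelets were too low to test. The part of these markers in the results below was not tested. Of 20 tested immediate early and handling genes, members left out, 11 were lower, 3 higher and 6 did not pass. Among all tested genes 10.1% were lower and 7.23% higher. The sum over all 21 genes of that list was 6529 to 6573 CPM in KO-labelled and 6991 to 7053 CPM in WT-labelled libraries, a difference in which Egr1 weighs most (358 CPM in KO-labelled and 711 CPM in WT-labelled libraries). The heat shock genes Hspa8 (3315 and 3228 CPM in the same order) and Hsp90aa1 (1038 and 1020 CPM) make up most of that sum and did not pass.

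These proteins act late in the life of an mRNA. ZFP36 (tristetraprolin), ZFP36L1 and ZFP36L2 bind AU-rich elements in 3′ untranslated regions through paired CCCH zinc fingers and recruit the CCR4-NOT deadenylase. BTG1 and BTG2 join the same deadenylase to the poly(A)-binding protein and have been tied to the maintenance of T cell quiescence. Roquin-1 (Rc3h1) and Roquin-2 (Rc3h2) recognise stem-loops in mRNAs such as Icos, and Regnase-1 (Zc3h12a), an endonuclease, cleaves mRNAs of inflammatory genes at similar stem-loops. After T cell receptor engagement the paracaspase MALT1 cleaves both Regnase-1 and the Roquins, and the kinase MK2 phosphorylates ZFP36 and lowers its activity.

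The transcripts of these genes differ in the element that the ZFP36 proteins themselves read. In the GENCODE M21 transcripts (build GRCm38), 5 of the 9 members held the AU-rich nonamer TTATTTATT once in the 3′ untranslated region of the principal transcript. They are all 3 ZFP36 family genes and both Roquin genes, and each site is shown with its flanks, the nonamer in capitals, because it is the feature by which these transcripts could be bound by members of their own group.
Zfp36: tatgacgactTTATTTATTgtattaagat
Zfp36l1: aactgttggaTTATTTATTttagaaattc
Zfp36l2: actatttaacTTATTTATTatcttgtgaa
Rc3h1: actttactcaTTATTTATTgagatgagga
Rc3h2: caaagacattTTATTTATTttactctgta
The Zfp36 site starts at base 589 of a 3′ untranslated region of 774 bases, and those of Zfp36l1 and Zfp36l2 at bases 1404 of 1835 and 821 of 1822. Among tested genes whose 3′ untranslated region is within 20% of the same length, 4.54% hold the nonamer for the length of Zfp36, 8.69% for Zfp36l1 and 8.72% for Zfp36l2. For the much longer regions of Rc3h1 and Rc3h2 these shares were 24.9% and 20%. The core heptamer TATTTAT occurred 3 times each in Zfp36, Zfp36l1, Zfp36l2 and Rc3h2, 2 times in Rc3h1 and once in Btg2, and was not found in Btg1, Zc3h12a or Zc3h12d. At least 3 heptamers occurred in 0.756% of the regions of similar length for Zfp36, 3.55% for Zfp36l1, 3.48% for Zfp36l2 and 14.6% for Rc3h2. The Pumilio element TGTANATA was found 2 times in Btg1, 2 times in Rc3h1 and once in Rc3h2, and 52.6%, 74.1% and 60.8% of the regions of similar length held it. All of these were searched on the transcript strand only, and every nonamer contains a heptamer.

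Of the 9 members, 7 passed the test, 5 lower and 2 higher in KO-labelled cells, and in both the BTG and the Regnase pair 1 gene rose while the other fell. The calls of Rc3h2 and Zc3h12d were lost when single libraries were left out, as given with each gene. Btg2 and Zfp36 fell the most, to 0.62 and 0.72 of the WT-labelled level, while Btg1 rose 1.16-fold. Over all tested genes 17.3% passed the test, 10.1% lower and 7.23% higher. The median log2 fold change of the 9 members was -0.16, beside 0.0014 over all 12810 genes, and the median absolute change was 0.26 beside 0.097. The KO-labelled and WT-labelled libraries did not overlap in 7 members, where 32.1% of all tested genes had no overlap. In bulk samples, fewer cells of a type that makes an mRNA and less of it per cell cannot be told apart.

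**Figure D1:**
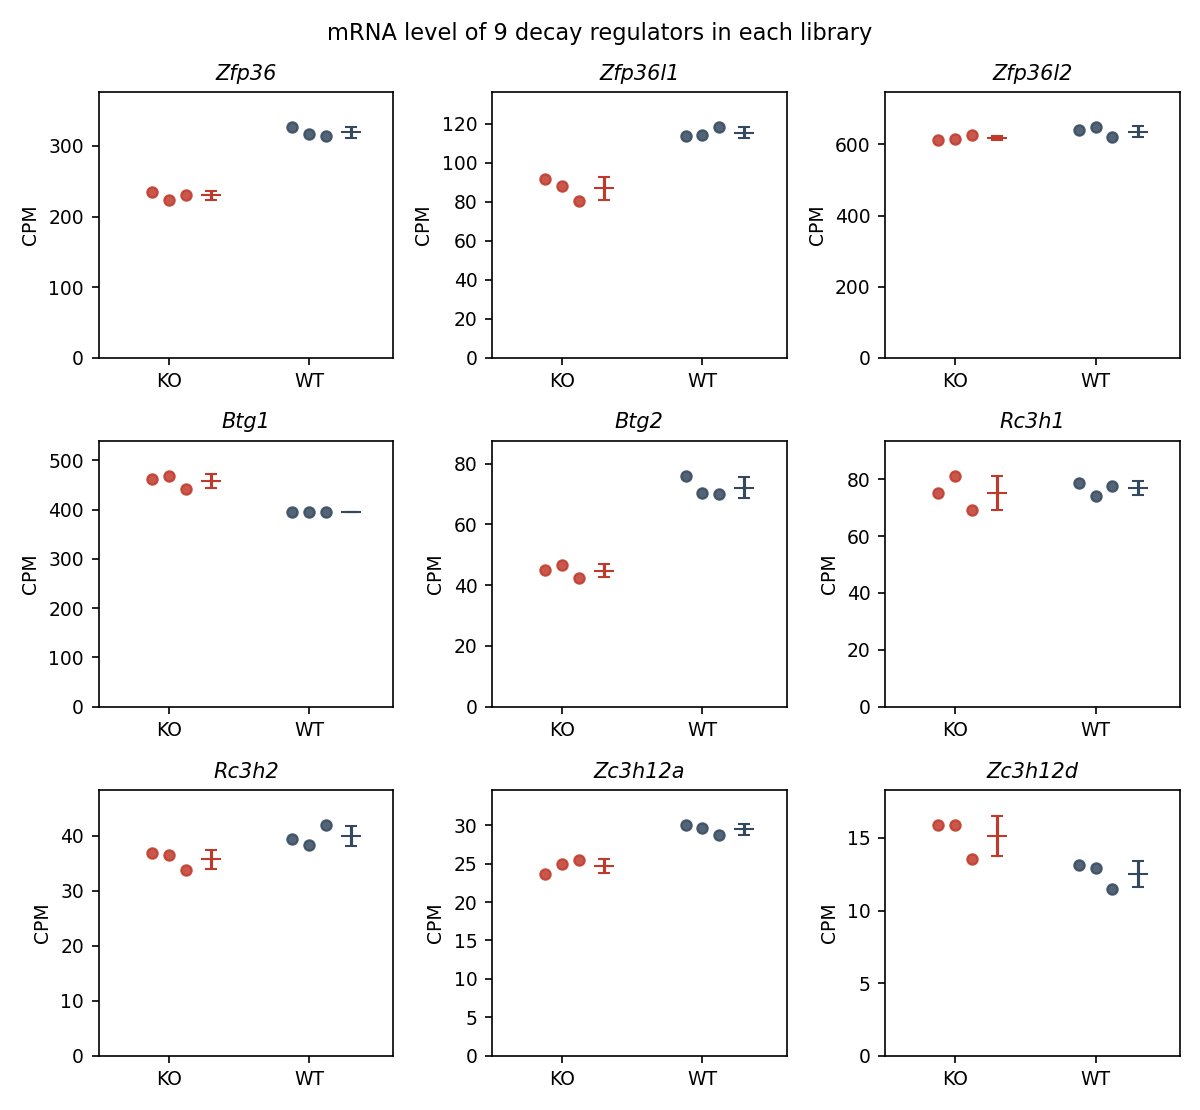
CPM (counts scaled to a common library size, linear axis from 0) of each of the 9 genes in the KO-labelled libraries (left, red) and the WT-labelled libraries (right, dark), 1 point a library, with the mean and SD beside them. KO-labelled points lie wholly below the WT-labelled ones for Zfp36, Zfp36l1, Btg2, Rc3h2 and Zc3h12a, wholly above for Btg1 and Zc3h12d, and overlap for Zfp36l2 and Rc3h1.

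Zfp36 encodes tristetraprolin, the founding member of its family and an early response gene that limits Tnf mRNA. It stood at 235, 223 and 231 CPM in KO-labelled replicates 1, 2 and 3, against 327, 316 and 314 CPM in WT-labelled replicates 1, 2 and 3. Every KO-labelled library was below every WT-labelled one, with a gap far wider than the spread within a label. Zfp36 fell by 28.0% (log2 fold change -0.47 ± 0.028, SE; 95% interval -30.8% to -25.01%; edgeR quasi-likelihood test, Benjamini-Hochberg adjusted p = 1.47e-11).

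Zfp36l1, whose product acts with ZFP36L2 to restrain cell cycle entry in developing lymphocytes, had 91.7, 88.1 and 80.4 CPM in KO-labelled replicates 1, 2 and 3. The WT-labelled replicates 1, 2 and 3 had 114, 114 and 118 CPM. The groups did not overlap, and KO replicate 3 was the lowest library. Zfp36l1 fell by 24.8% (log2 fold change -0.41 ± 0.043, SE; edgeR adjusted p = 1.40e-07).

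Zfp36l2, the third gene of the family, had 614, 615 and 626 CPM in KO-labelled replicates 1, 2 and 3 and 640, 650 and 620 CPM in WT-labelled replicates 1, 2 and 3. WT replicate 3 lay within the KO-labelled range, and the groups overlapped. Its log2 fold change of -0.04 ± 0.023 (SE) did not pass the test (edgeR adjusted p = 0.245), and the 95% interval ran from -6.08% to 0.414%. The changes of Zfp36 and Zfp36l1 lie outside that interval.

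Levels of different genes were compared per length, in the deposited FPKM (fragments per kilobase, scaled for depth). In KO-labelled libraries Zfp36l2 averaged 175 ± 1.94 FPKM, Zfp36 129 ± 3.79 and Zfp36l1 29.2 ± 1.95. In WT-labelled libraries the values were 179 ± 4.71 FPKM for Zfp36l2, 177 ± 4.52 for Zfp36 and 38.5 ± 0.772 for Zfp36l1 (SD, n = 3 each). Zfp36 and Zfp36l2 thus differed by less than their spread in WT-labelled cells, and in KO-labelled cells all 3 Zfp36 libraries were below all 3 Zfp36l2 libraries. The Zfp36/Zfp36l2 ratio of FPKM within a library was 0.757, 0.716 and 0.728 in KO-labelled replicates 1, 2 and 3 and 1.01, 0.960 and 0.999 in WT-labelled ones. Zfp36l1/Zfp36l2 was 0.166 ± 0.0127 in KO-labelled and 0.215 ± 0.00996 in WT-labelled libraries (SD, n = 3 each). Neither ratio overlapped between labels, and each gave p = 0.1 when its log2 was compared by exact permutation, two-sided (0.12 after Benjamini-Hochberg adjustment over 6 ratios), the smallest p that 3 libraries against 3 allow. Zfp36/Zfp36l1 overlapped, at 4.42 ± 0.312 and 4.61 ± 0.193 (KO-labelled and WT-labelled; exact permutation p = 0.4, adjusted 0.4).

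Summed over the 3 genes, the ZFP36 family reached 337, 328 and 334 FPKM in KO-labelled replicates 1, 2 and 3 and 401, 397 and 387 FPKM in WT-labelled ones. No library overlapped, and the mean in KO-labelled libraries had dropped by 15.7%. Zfp36l2 made up 52.6% ± 0.805 of this sum in KO-labelled and 45.4% ± 0.660 in WT-labelled libraries, and Zfp36 made up 38.6% ± 0.596 in KO-labelled and 44.9% ± 0.604 in WT-labelled libraries (SD, n = 3 each).

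**Figure D2:**
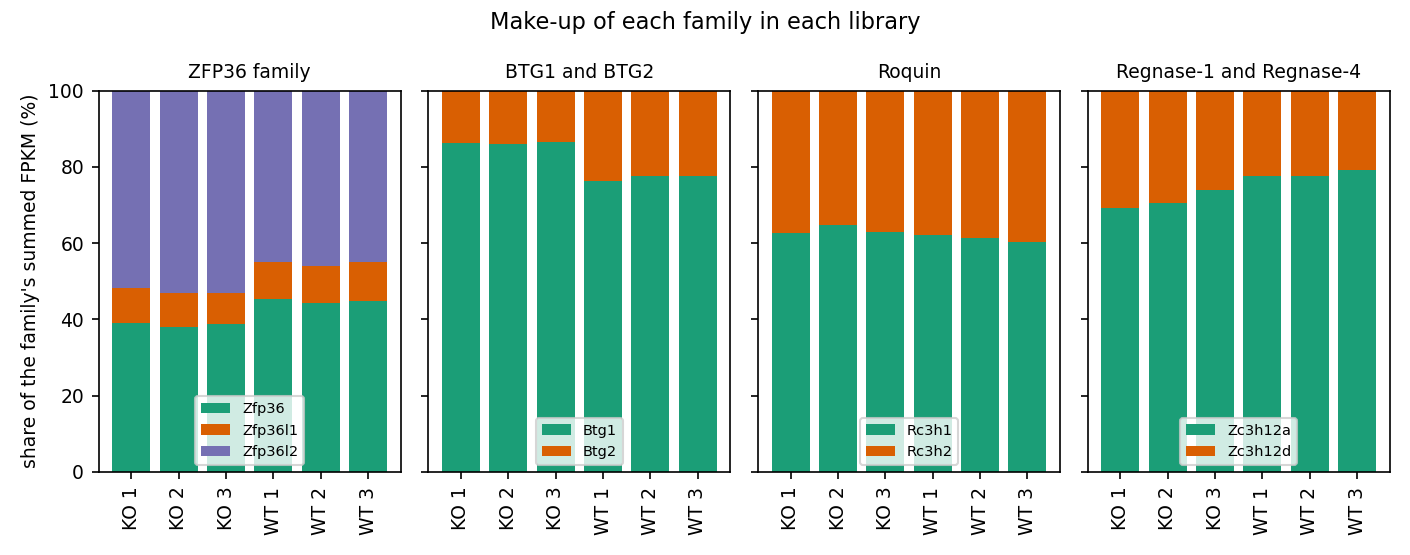
Share of each gene in its family's summed FPKM (percent, stacked to 100), 1 bar a library, KO-labelled bars left of WT-labelled ones. Zfp36l2 holds 52.6% of the ZFP36 family in KO-labelled and 45.4% in WT-labelled libraries. In the same order, Btg2 holds 13.7% and 22.9% of its pair, and Rc3h1 holds 63.4% and 61.3% of the Roquin pair.

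Btg2, a target gene of p53 and an early response gene, was at 45.0, 46.7 and 42.4 CPM in KO-labelled replicates 1, 2 and 3, against 76.1, 70.2 and 70.1 CPM in WT-labelled replicates 1, 2 and 3. The groups lay far apart. Btg2 fell by 38.0% (log2 fold change -0.69 ± 0.048, SE; 95% interval -42.2% to -33.5%; edgeR adjusted p = 2.40e-10), and 5.06% of tested genes had a larger absolute change.

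Btg1, its close relative, went the other way. It had 462, 469 and 443 CPM in KO-labelled replicates 1, 2 and 3 and 396, 394 and 395 CPM in WT-labelled replicates 1, 2 and 3, where the libraries were almost level. All KO-labelled libraries were above all WT-labelled ones. Btg1 rose by 15.9% (log2 fold change 0.21 ± 0.025, SE; 95% interval 11.8% to 20.2%; edgeR adjusted p = 1.08e-06).

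The Btg2/Btg1 ratio of FPKM was 0.158, 0.162 and 0.156 in KO-labelled replicates 1, 2 and 3 and 0.312, 0.289 and 0.288 in WT-labelled ones, a difference of -0.90 on the log2 scale (exact permutation p = 0.1, adjusted 0.12). Btg1 was the more abundant of the pair in all 6 libraries, at 91.7 ± 2.64 FPKM in KO-labelled and 78.6 ± 0.312 FPKM in WT-labelled libraries, against 14.5 ± 0.688 and 23.3 ± 1.16 FPKM of Btg2 (SD, n = 3 each). The summed FPKM of the pair overlapped between labels, at 106 ± 3.32 in KO-labelled and 102 ± 1.48 in WT-labelled libraries.

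The 250 bases upstream of the annotated start are shown for the pair that moved apart and for Zfp36, which fell with Btg2. They are RefSeq sequences of GRCm38.p6, matched by symbol for 8 of the 9 members (not Zfp36l2), and the files' build is GRCm39, so the coordinates hold for GRCm38 only. Capitals mark matches to any of 6 motifs searched on both strands: CACGTG (the E-box that USF proteins bind), TGACGTCA (cyclic AMP response element), GCGNGGGCG (EGR), TTCNNNGAA (STAT), TATAAA and the CArG box of serum response factor.
Zfp36 promoter, chr7:28379229-28379478, minus strand: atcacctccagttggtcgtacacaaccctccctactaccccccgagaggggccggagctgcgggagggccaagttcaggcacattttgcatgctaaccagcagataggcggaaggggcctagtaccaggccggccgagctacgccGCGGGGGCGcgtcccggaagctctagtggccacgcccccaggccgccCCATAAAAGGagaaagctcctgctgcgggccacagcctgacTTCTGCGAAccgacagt
Btg2 promoter, chr1:134079156-134079405, minus strand: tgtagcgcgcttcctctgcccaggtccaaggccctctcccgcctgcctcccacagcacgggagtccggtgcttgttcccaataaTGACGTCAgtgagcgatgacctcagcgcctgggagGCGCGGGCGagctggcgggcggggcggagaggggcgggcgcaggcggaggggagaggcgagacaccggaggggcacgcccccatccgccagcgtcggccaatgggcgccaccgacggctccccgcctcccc
Btg1 promoter, chr10:96616751-96617000, plus strand: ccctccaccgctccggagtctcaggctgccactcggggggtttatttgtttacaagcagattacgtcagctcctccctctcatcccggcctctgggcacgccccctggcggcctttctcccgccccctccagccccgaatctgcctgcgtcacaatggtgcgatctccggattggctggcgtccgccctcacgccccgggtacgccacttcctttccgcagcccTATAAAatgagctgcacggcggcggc
The Zfp36 window held 1 EGR match at 105 to 97 bases upstream, 1 CArG box at 58 to 49 bases and 1 STAT match at 17 to 9 bases, none overlapping another. The Btg2 window held TGACGTCA at 166 to 159 bases upstream and 1 EGR match at 131 to 123 bases. Btg1 and Zfp36l1 held TATAAA only, at 26 to 21 and 29 to 24 bases upstream. No other motif of the set was found in the 8 windows, CACGTG included. Of all 32851 such windows, 6.02% held CACGTG, 1.55% TGACGTCA, 4.70% the EGR motif, 7.02% the STAT motif, 12.4% TATAAA and 1.47% the CArG box. These matches are letters in a window and do not show binding.

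Rc3h1, which encodes Roquin-1, was at 75.1, 81.2 and 69.3 CPM in KO-labelled replicates 1, 2 and 3 and 78.8, 74.0 and 77.6 CPM in WT-labelled ones. The KO-labelled libraries spread across and beyond the WT-labelled range. Rc3h1 did not pass the test (log2 fold change -0.03 ± 0.049, SE; 95% interval -8.66% to 5.08%; edgeR adjusted p = 0.750), and its log2 fold change was 0.026 without KO replicate 3.

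Rc3h2, which encodes the paralogue Roquin-2, had 36.9, 36.6 and 33.8 CPM in KO-labelled replicates 1, 2 and 3 and 39.5, 38.4 and 42.0 CPM in WT-labelled ones. The groups did not overlap, but KO replicate 1 and WT replicate 2 were close. Rc3h2 fell by 10.5% and passed narrowly (log2 fold change -0.16 ± 0.055, SE; edgeR adjusted p = 0.0476). The call was lost without KO replicate 1 (edgeR adjusted p = 0.0609), KO replicate 3 (0.172), WT replicate 1 (0.102), WT replicate 2 (0.0542) or WT replicate 3 (0.235), and over all 16 alternatives the adjusted p ran from 0.0417 to 0.235. Per length, Rc3h1 was the higher of the pair in every library, at 6.85 ± 0.530 FPKM in KO-labelled and 6.95 ± 0.229 FPKM in WT-labelled libraries, against 3.96 ± 0.192 and 4.39 ± 0.198 FPKM of Rc3h2 (SD, n = 3 each). Their ratio Rc3h2/Rc3h1 was 0.579 ± 0.028 in KO-labelled and 0.633 ± 0.025 in WT-labelled libraries, without overlap (SD, n = 3 each; exact permutation p = 0.1, adjusted 0.12). The summed FPKM of the Roquin pair overlapped, at 10.8 ± 0.691 in KO-labelled and 11.3 ± 0.372 in WT-labelled libraries (SD, n = 3 each).

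Zc3h12a, the gene of Regnase-1, stood at 23.6, 24.97 and 25.5 CPM in KO-labelled replicates 1, 2 and 3 and at 30.1, 29.6 and 28.7 CPM in WT-labelled ones. All KO-labelled libraries were below all WT-labelled ones. Zc3h12a fell by 16.3% (log2 fold change -0.26 ± 0.060, SE; 95% interval -23.2% to -8.72%; edgeR adjusted p = 0.00363).

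Zc3h12d, the gene of Regnase-4, a lymphocyte member of the same family, was the lowest of the 9 genes per length. It had 15.9, 15.9 and 13.5 CPM in KO-labelled replicates 1, 2 and 3 and 13.1, 12.9 and 11.5 CPM in WT-labelled ones, so KO replicate 3 lay just above WT replicate 1. Zc3h12d rose by 21.0% (log2 fold change 0.28 ± 0.089, SE; edgeR adjusted p = 0.0355). It had 403 to 570 counts a library, at which counting is uncertain by 4.53% of the mean, while the SD between libraries was 9.03% of the mean in KO-labelled and 7.22% in WT-labelled cells. The call was lost without KO replicate 1 (edgeR adjusted p = 0.145), KO replicate 2 (0.0987), WT replicate 1 (0.0530), WT replicate 2 (0.0654) or WT replicate 3 (0.161), and over the 16 alternatives the adjusted p ran from 0.00552 to 0.161.

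The pair moved apart as Btg1 and Btg2 did. Zc3h12d/Zc3h12a was 0.444, 0.420 and 0.351 in KO-labelled replicates 1, 2 and 3 and 0.288, 0.287 and 0.263 in WT-labelled ones, a difference of 0.53 on the log2 scale (exact permutation p = 0.1, adjusted 0.12). Zc3h12a was the higher of the pair in every library, at 8.82 ± 0.328 FPKM in KO-labelled and 10.5 ± 0.278 FPKM in WT-labelled libraries, against 3.56 ± 0.320 and 2.93 ± 0.219 FPKM of Zc3h12d (SD, n = 3 each). Their summed FPKM was 12.4 ± 0.223 in KO-labelled and 13.4 ± 0.494 in WT-labelled libraries, without overlap (SD, n = 3 each).

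**Figure D3:**
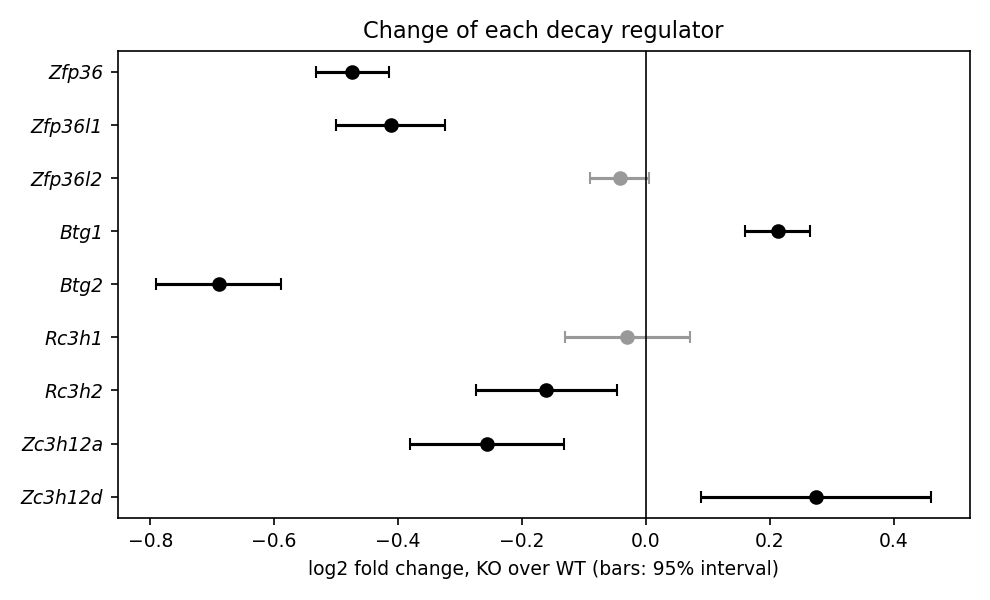
log2 fold change of each gene, KO-labelled over WT-labelled, with the 95% interval of the edgeR fit, black where the adjusted p was under 0.05 and grey otherwise. Btg2 (-0.69), Zfp36 (-0.47) and Zfp36l1 (-0.41) lie furthest below 0, Btg1 (0.21) and Zc3h12d (0.28) lie above it, and the intervals of Zfp36l2 and Rc3h1 include it.

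By mean FPKM over all libraries, Zfp36l2, Zfp36 and Btg1 were above 97.3%, 96.9% and 93.5% of tested genes. Zfp36l1, Btg2 and Zc3h12a followed, above 83.3%, 72.6% and 58.2%, and then Rc3h1, Rc3h2 and Zc3h12d, above 51.0%, 41.4% and 37.2%. Neighbours in this order overlapped in FPKM in 2 places, Rc3h2 with Zc3h12d in KO-labelled cells and Zfp36l2 with Zfp36 in WT-labelled cells. KO replicate 3 was the lowest KO-labelled library for 6 members (Zfp36l1, Btg1, Btg2, Rc3h1, Rc3h2 and Zc3h12d) and the highest for Zfp36l2 and Zc3h12a.

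The genes whose pattern over the 6 libraries was most like a member's were found by the root mean square distance of centred log2 CPM among 8429 other tested genes of at least 10 CPM. For Zfp36 they were Soat2, the gene of a sterol acyltransferase, and Adap1, at distances of 0.019 and 0.022, with log2 fold changes of -0.47 and -0.45. For Zfp36l1 they were Dcun1d3 and the interferon-inducible gene Ifi203, at 0.029 and 0.030. The nearest to Btg2 were Gbp6, which encodes an interferon-inducible GTPase, and Gm12250, at 0.031 and 0.044. The nearest to Btg1 were Tyms, the gene of thymidylate synthase, and the lymphocyte transcription factor gene Ikzf3, at 0.017 and 0.019. For Zfp36l2 they were Snw1 and Ak3, at 0.0072 and 0.0095, and for Rc3h1 and Rc3h2 Cacul1 and Haus6, and Ano10 and Pdcd10. The nearest to Zc3h12a were Slc28a2 and Fbxo6, at 0.016 and 0.018. For Zc3h12d, Myo6 and Bach2, a repressor gene of effector differentiation, were farther off, at 0.048 and 0.050.

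The machinery that these proteins recruit was counted list by list, beside the 17.3% of all tested genes that passed. Of 17 tested CCR4-NOT, PAN2-PAN3 and poly(A)-binding genes, 2 were higher and 0 lower, with a median log2 fold change of 0.018. They were Pabpc4, a poly(A)-binding protein gene (0.16 ± 0.026, SE), and Cnot1, the scaffold of CCR4-NOT (0.07 ± 0.022; edgeR adjusted p = 7.82e-05 and 0.0382). The count of higher genes was 1 without any 1 library other than KO replicate 3, and without KO replicate 2 there was also 1 lower gene. Of 19 decapping genes 1 was lower, the exonuclease gene Xrn1 at -0.14 (edgeR adjusted p = 0.0195), and 0 were higher. Dcp2, the decapping enzyme gene, was at -0.09 (edgeR adjusted p = 0.0898). That lower count was 2 without KO replicate 2 and 0 without KO replicate 3, WT replicate 1 or WT replicate 2.

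Of 15 tested genes of the RNA exosome, the SKI complex and the helicase Mtrex, 2 were higher and 0 lower. The higher ones were the exosome gene Exosc4 (0.21) and Mtrex (0.09), with edgeR adjusted p of 0.0173 and 0.0474. The count was 0 without KO replicate 1 and 1 without WT replicate 1, 2 or 3. Of 10 genes of nonsense-mediated decay 2 were lower, the endonuclease gene Smg6 (-0.27) and the kinase gene Smg1 (-0.09; edgeR adjusted p = 5.62e-05 and 0.0275). The lower count was 1 without any 1 library other than KO replicate 2, and without KO replicate 1 there was also 1 higher gene. Of 10 other genes for proteins that bind 3′ untranslated regions, Arid5b fell (-0.19, edgeR adjusted p = 0.00891) and Arid5a, a stabiliser of Il6 mRNA that opposes Regnase-1, was at -0.06 (edgeR adjusted p = 0.166). Among 5 tested relatives of the members, Tob2, a BTG/Tob family gene, fell by 0.17 (edgeR adjusted p = 0.0056), and Tob1 was at -0.15 (edgeR adjusted p = 0.338). Zfp36l3 and Btg4 were too low to test.

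Of 18 genes that act on the members, 3 were higher and 4 lower, beside 7.23% higher and 10.1% lower of all tested genes. Dusp1, a phosphatase gene that switches off the p38 kinase upstream of MK2, stood at 69.6 ± 2.83 CPM in KO-labelled and 48.9 ± 1.67 CPM in WT-labelled libraries (SD, n = 3 each; log2 fold change 0.51, edgeR adjusted p = 1.36e-08). Malt1, the protease gene, averaged 170 ± 4.45 CPM in KO-labelled and 202 ± 4.35 CPM in WT-labelled libraries (SD, n = 3 each; -0.25, edgeR adjusted p = 1.51e-06). The lower genes beside Malt1 were Nfkb1 (-0.19) and the transcription factor genes Klf2 (-0.84) and Foxo3 (-0.48), with edgeR adjusted p of 2.53e-07 for Klf2 and 2.42e-06 for Foxo3. The number of higher genes was 2 without any 1 library other than KO replicate 3. Mapk14 (p38α), Mapkapk2 (MK2), Srf and Trp53 did not pass, at 0.03, -0.06, -0.09 and 0.05.

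Reported mRNA targets of the members were mostly lower where they changed, on lists chosen with earlier results of these data known. Of 19 tested mRNAs on a list of reported ZFP36 family targets, 14 were lower and 1 higher, with a median log2 fold change of -0.23. Among all tested genes 10.1% were lower and 7.23% higher. Myc was at 147 ± 1.36 CPM in KO-labelled and 225 ± 2.54 CPM in WT-labelled libraries (SD, n = 3 each; -0.62, edgeR adjusted p = 1.93e-13). The activation marker Cd69 (-0.47), the chemokine gene Ccl3 (-0.62) and Fos (a change of -50.1%) also fell. Tnf, the best known target of ZFP36, was at 25.02 ± 1.26 CPM in KO-labelled and 40.1 ± 0.982 CPM in WT-labelled libraries (SD, n = 3 each; -0.68, edgeR adjusted p = 4.51e-09). The 1 higher mRNA was Ifng, at 83.2 ± 2.58 CPM in KO-labelled and 69.8 ± 1.11 CPM in WT-labelled libraries (SD, n = 3 each; 0.25, edgeR adjusted p = 5.55e-05). Fos and Ier3 are also on the immediate early list, and without these 2 genes 12 of 17 were lower and 1 higher. With each library left out the lower count ran from 11 (without KO replicate 1) to 15 (without KO replicate 2). The higher count was 2 without KO replicate 3.

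Of 19 tested reported targets of Roquin and Regnase proteins, 8 were lower and 1 higher, with a median of -0.09. Over all tested genes 10.1% were lower and 7.23% higher. Ctla4 was at 83.9 ± 5.89 CPM in KO-labelled and 128 ± 3.26 CPM in WT-labelled libraries (SD, n = 3 each; -0.61, edgeR adjusted p = 2.63e-10). Cd274 (PD-L1), Tnf and Irf4 also fell, with log2 fold changes of -0.64, -0.68 and -0.33. Icos, the first described Roquin target, was the 1 higher, by 0.18 (edgeR adjusted p = 0.000861). The lower count was 7 by total-count scaling and with DESeq2, and 6 or 7 with each library left out. The higher count was 2 by total-count scaling and 3 without KO replicate 3. Both target lists share 5 genes, 20.8% of the first and 22.7% of the second. The immediate early and handling list, to which Zfp36 and Btg2 are often added, had 11 of 20 lower and 3 higher, with a median of -0.18. Its lower genes included Egr1 (-0.99), Nr4a1 (-1.49), Ier2 (-0.64) and Fos, and its higher ones were Dusp1 (0.51), Dusp2 (0.37) and Nfkbia (0.35). Whether this list accounts for any change in the members or their targets was not tested.

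**Figure D4:**
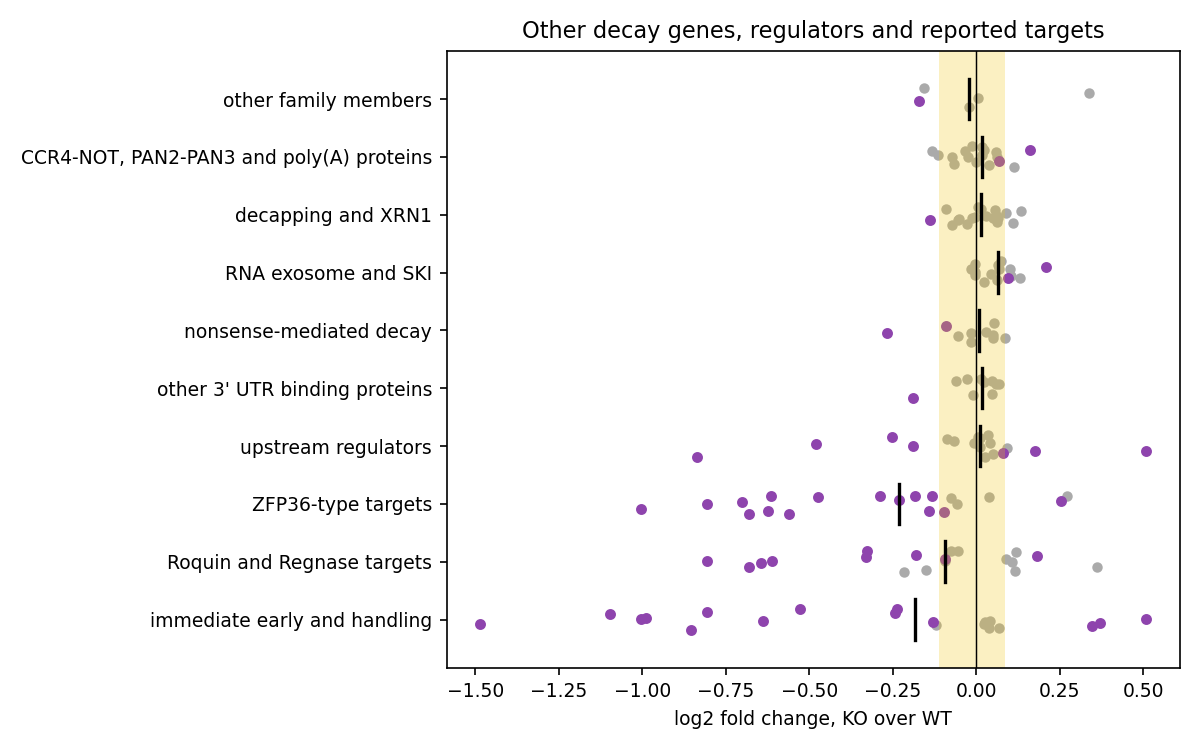
log2 fold change (KO-labelled over WT-labelled) of each tested gene in the lists of related genes, purple where the adjusted p was under 0.05 and grey otherwise, with a black bar at each list's median. The yellow band spans the middle 50% of all tested genes, from -0.11 to 0.088; the medians of the ZFP36 targets (-0.23) and the immediate early genes (-0.18) lie left of it.

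By sequence alone, the nonamer was counted in the 3′ untranslated region of the principal transcript, which was obtained for 11002 tested genes. At least 2 copies were held by 169 of these genes, and 1 copy by 630. Of those with at least 2 copies 16.6% were lower and 5.92% higher, with 1 copy 13.3% lower and 8.10% higher, and with no copy 10.8% lower and 8.03% higher. Median log2 fold changes were -0.021, -0.011 and 0.0049 in the same order. The median length of the 3′ untranslated region was 2958, 2035 and 952 bases in the same order, so copy number and length move together and were not separated. Of 18 ZFP36 targets with such a region, 15 held the heptamer, of which 11 were lower and 1 higher, and 2 of the 3 without it were lower. Myc, also a tested target, is not among the 18. No region was obtained for Myc by this search, which does not mean that its transcript has none. On the Roquin and Regnase list 4 of 10 with the heptamer and 4 of 9 without it were lower. Of all 11002 genes 28.0% held the heptamer, and of these 13.1% were lower and 6.87% higher. Tnf held 5 nonamers and 8 heptamers. Csf2, with 4 nonamers and 9 heptamers, did not pass, at 0.27 (edgeR adjusted p = 0.436).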

How the data were processed

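RNA was prepared from the sorted cells with TRIzol, per the labels' protocols. The submitters' processing notes name fastp, HISAT2, HTSeq and build GRCm39. The sources used here do not give versions, annotation or strand use, so an antisense gene overlapping a member could share its reads. In GENCODE M21, Zfp36 (Gm44710), Zfp36l1 (Gm26669), Zfp36l2 and Zc3h12d (Gm24726) each overlap a gene on the opposite strand. The authors deposited raw counts per gene symbol and FPKM values, which are scaled for gene length and depth. For the count test, edgeR 4.0.16 was run under R 4.3.3 (TMM, filterByExpr, glmQLFit and glmQLFTest on the label, all 6 libraries; threshold 0.05 on the Benjamini-Hochberg adjusted p over 12810 genes). The spread beyond counting error was 4.16%. CPM are counts over the TMM-scaled library size; each SE was derived from the fold change and its F statistic. FPKM served for levels between genes and for ratios, compared by two-sided exact permutation tests.

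The 16 alternatives comprised scaling by RLE, by upper quartile or by total counts, limma-voom, DESeq2 1.42.0, limma 3.58.1 on log2(FPKM + 1 or 0.1) for mean FPKM of at least 1, no filter, at least 1 CPM in 3 libraries, a replicate block, and each library left out. No libraries were merged, since those of the same label differed beyond counting noise (chi-square per degree of freedom 3.28 to 7.24). Named genes were all members, up to 4 called genes by smallest p from each list (or the 2 with the smallest p), and the 2 nearest patterns per member. Other genes were named after their values were seen. The members, lists and tests were chosen with earlier results of these data known; leaving out shared immediate early genes was added after seeing these values. The scripts were tested on 1 set of simulated data. There, 47.7% of 1.2-fold, 76.1% of 1.5-fold and 80% of 2-fold changes passed the threshold, and 7.59% of the calls were false. Sequences came from RefSeq (GRCm38.p6) and GENCODE M21 and were matched by symbol. Some genes counted in the lists are not reported here by name.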

Additional observations from a re-analysis of the deposited data

How the results depend on the processing

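Zfp36, Zfp36l1, Btg1, Btg2 and Zc3h12a kept their direction and passed the threshold under all 16 alternatives, and Zfp36l2 kept its direction and passed under none of them. The log2 fold change of Rc3h2 stayed negative but missed the threshold with upper-quartile scaling (-0.15), total counts (-0.15), DESeq2 (-0.16), limma-voom (-0.16), log2 FPKM with pseudocounts of 1 (-0.12) and 0.1 (-0.15) and the replicate block (-0.16, edgeR adjusted p = 0.0821), and ran from -0.19 to -0.12 with each library left out. That of Zc3h12d missed it with DESeq2 (0.28) and with log2 FPKM at pseudocounts of 1 (0.22) and 0.1 (0.27), and ran from 0.22 to 0.35 with each library left out. Rc3h1 ran from -0.088 to 0.026 with each library left out. The number of higher members was 1 with DESeq2 and both FPKM settings and 1 to 2 with each library left out. The cause of these differences was not tested. The within-library ratios kept their direction. Same-numbered libraries of the labels did not deviate together (correlations of -0.031, -0.039 and -0.13), so the numbers were not taken as pairs; with the replicate block 1969 genes passed, beside 2219 without it, and among the members only the Rc3h2 call changed.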
